A study of Sus scrofa with 16 samples.

Results

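The genes described here belong to purinergic and adenosine signalling: the adenosine receptors ADORA1, ADORA2A, ADORA2B and ADORA3, the ecto-enzymes ENTPD1 (CD39) and NT5E (CD73), adenosine deaminase (ADA) and the ATP-gated channel P2RX7. The 8 genes were chosen by their pathway with the colonic diet differences of these arrays in view, those of ADORA3 and ENTPD1 among them. A probe was taken as a member when it was not a control and the array files named it after one of these 8 genes or gave the symbol in brackets in its description. This found 4 of the 8 genes, among 7116 distinct symbols on the array, and 9 of the 43603 probes, 2 for ADORA3, 2 for ADORA2A, 4 for ENTPD1 and 1 for P2RX7. Matching the remaining names to the pig RefSeq gene table added 2 probes of ADORA1 and 1 of NT5E, which were kept apart from the 9. No probe was found for ADORA2B or ADA by either route, and these genes were not analysed here.

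The arrays carried RNA of colonic mucosa and liver from Duroc × Landrace × Large White barrows, which are castrated male pigs, at 170 days of age. From 70 days of age the pigs ate a corn and soybean diet holding 230 g of purified starch per kg of feed, and from 120 days a finishing diet holding 280 g per kg. The starch was corn starch in the CS groups and raw potato starch, a starch that largely escapes digestion in the small intestine, in the RPS groups. Each tissue had 4 CS and 4 RPS pigs, with 1 array per tissue sample, so that there were 16 arrays in 4 groups. The labels number the pigs in each group but do not state that a number marks the same pig in colon and liver. All levels below are log2 signals after quantile normalization, either over the 8 arrays of a tissue (diet comparisons) or over all 16 arrays (colon against liver), and levels of different probes are on different scales.

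ATP that leaves stressed or dying cells acts as a danger signal on P2 receptors, of which P2RX7 is the channel best known for starting inflammasome activation in macrophages. ENTPD1 strips phosphates from extracellular ATP and ADP to give AMP, NT5E turns AMP into adenosine, and ADA converts adenosine to inosine. Adenosine then acts on its own receptors: ADORA2A and ADORA2B raise cyclic AMP and mostly restrain leukocytes, while ADORA1 and ADORA3 couple to inhibitory G proteins, and ADORA3 is found on mast cells, eosinophils, neutrophils and macrophages.

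The probes that the results turn on are shown in the sense of the messenger RNA, as the array files list them. Both ADORA3 probes and 3 of the 4 ENTPD1 probes are given, because the ADORA3 probes moved alike and the ENTPD1 probes did not. Each is 60 bases long, and capitals mark the longest run shared with a probe of another gene or of no named gene on the array, at most 14 bases in these 5.
ADORA3 A_72_P592214: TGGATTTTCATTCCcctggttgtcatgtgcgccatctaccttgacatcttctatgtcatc
ADORA3 A_72_P209987: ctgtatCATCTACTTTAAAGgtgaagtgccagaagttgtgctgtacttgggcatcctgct
ENTPD1 A_72_P717958: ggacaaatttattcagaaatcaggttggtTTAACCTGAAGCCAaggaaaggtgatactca
ENTPD1 A_72_P712383: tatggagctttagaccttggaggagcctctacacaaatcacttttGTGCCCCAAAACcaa
ENTPD1 A_72_P762377: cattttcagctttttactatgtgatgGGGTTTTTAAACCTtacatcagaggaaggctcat

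The tissue labels were checked against marker genes. In the colon all 9 measured genes of the epithelial list were well above background on every array, and in the liver all 6 measured hepatocyte genes were, with a mean log2 level over the list of 17.28 to 17.59 in liver against 3.91 to 5.33 in colon, each tissue normalized on its own. Within the colon, CS replicate 3 and RPS replicate 2 stood apart. Their mean epithelial level was 11.07 and 11.93 against 12.96 to 13.72 on the other 6 arrays, and their mean level over 4 B cell genes was 10.46 and 10.17 against 5.32 to 8.48. Colonic results are therefore also given without these arrays. Before normalization the median signal ran from 56.3 to 70.8 on the colonic CS arrays and was 34.2 to 42.5 on the colonic RPS arrays and 30.6 to 37.9 in liver. Each slide held the arrays of 1 group, and within a tissue the diet and the slide cannot be told apart. No slide held both tissues, so the tissue and the slide cannot be told apart either.

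ADORA3 was lower in the colon of RPS-fed pigs on both of its probes. Because the genes were chosen with the colonic diet differences known, that comparison is a description: differences are given with their SE and no p for any member. On A_72_P592214 the 4 CS arrays read 6.61, 6.71, 7.67 and 6.63 and the 4 RPS arrays 5.56, 6.39, 5.06 and 4.87. Every RPS array lay below every CS array, and replicate 3 was the highest of the CS arrays and replicate 2 the highest of the RPS arrays. The means were 6.90 ± 0.51 and 5.47 ± 0.68 (SD, n = 4 each), a log2 difference of -1.43 (SE 0.39), which is 2.70-fold lower with RPS.

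On A_72_P209987 the CS arrays read 6.59, 6.97, 7.76 and 6.82 and the RPS arrays 5.74, 6.88, 5.12 and 5.28. The groups overlapped only through RPS replicate 2, which lay above CS replicates 1 and 4. The log2 difference was -1.28 (SE 0.44), or 2.43-fold lower with RPS. The array files list starts of 875 and 1072 for the 2 probes, which were read as positions in the target transcript although the files do not define them. The probes followed each other closely, with a Pearson r of 0.983 over the 8 colonic and 0.913 over the 8 liver arrays. Both were well above background on all 16 arrays.

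Without CS replicate 3 and RPS replicate 2 the ADORA3 differences were -1.48 (SE 0.20) and -1.41 (SE 0.20) with 3 arrays per group. The CS arrays then read 6.56 to 6.66 and the RPS arrays 4.82 to 5.51 on A_72_P592214. On A_72_P209987 they read 6.53 to 6.91 and 5.06 to 5.68. CS replicate 3 and RPS replicate 2 were left out after the data had been seen. Over all probes the count with an unadjusted limma p under 0.05 and a change above 1.5-fold then rose from 1283 to 2385. The share of all probes without overlap at 3 arrays per group was not counted, so nothing is read from the missing overlap.

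**Figure D1:**
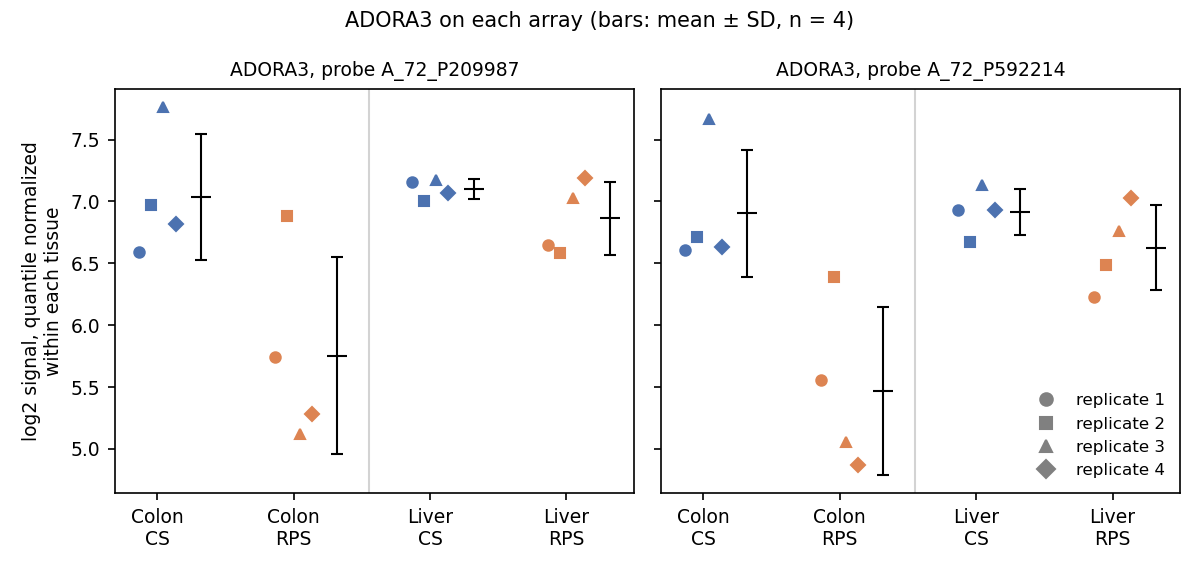
ADORA3 on its 2 probes, as log2 signal after quantile normalization within each tissue, for the colon and liver of pigs fed CS (blue) or RPS (orange); each symbol is an array, its shape gives the replicate number, and bars are the mean ± SD of 4 arrays. In the colon the RPS arrays lie below the CS arrays apart from RPS replicate 2 on A_72_P209987, while the liver arrays lie between 6.23 and 7.19.

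In liver, ADORA3 did not pass the test between the diets. A_72_P209987 read 7.16, 7.00, 7.17 and 7.07 in the CS arrays and 6.65, 6.58, 7.03 and 7.19 in the RPS arrays. The log2 difference was -0.24 (SE 0.15, 95% interval -0.59 to 0.11, limma adjusted p = 0.775, exact two-sided permutation p = 0.257). A_72_P592214 gave -0.29 (SE 0.19, interval -0.73 to 0.15, limma adjusted p = 0.790, exact permutation p = 0.200). The smallest p that 4 against 4 arrays allow in the exact test is 0.0286. Both estimates lay below 0, and both groups overlapped. Whether the diet difference of ADORA3 was larger in colon than in liver was not tested, because such a test would use the colonic values that chose the gene.

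ADORA3 did not pass a test between colon and liver within the CS diet, at a log2 difference of -0.53 (limma adjusted p = 0.130) on A_72_P209987 and -0.48 (adjusted p = 0.185) on A_72_P592214. The colonic diet difference known when the gene was chosen rests on the CS values as well as the RPS values. The comparison between the tissues, within the CS diet or with the RPS pigs included, is therefore a description. Over all 16 arrays A_72_P209987 ranged from 4.84 to 7.54 in colon, with a median of 6.46, and from 6.82 to 7.41 in liver, with a median of 7.28. The log2 difference was -1.07 (SE 0.24), 2.10-fold lower in colon, and A_72_P592214 also gave -1.07 (SE 0.23). Within the RPS diet the differences were -1.60 and -1.66. The order of the group means was the same on both probes, liver CS (7.33 and 7.15), liver RPS (7.09 and 6.86), colon CS (6.79 and 6.66) and colon RPS (5.49 and 5.21).

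The samples are liver and scraped colonic mucosa, both of mixed cells, in which fewer cells of a type and less RNA per cell cannot be told apart. Of the cell types known to carry ADORA3, the macrophage and monocyte list had 5 of 8 genes measured, all well above background on every array. Its mean log2 level was 10.17 to 10.59 in the colonic CS arrays and 9.34 to 10.46 in the RPS arrays, and 13.56 to 13.88 in liver. Of the 5, 4 had lower estimates with RPS and none passed an unadjusted p under 0.05 with a change above 1.5-fold. The neutrophil and eosinophil list had 5 of 8 genes measured, 3 of them well above background on every colonic array. Its mean level was 3.92 to 6.12 in CS and 5.41 to 5.77 in RPS. Of these 5 genes, 2 had lower estimates with RPS, and the median was 0.39. The mast cell list had 2 of 7 genes measured, both lower in estimate (median -0.18), at 7.40 to 8.52 and 7.68 to 8.46. For T cells all 6 genes had lower estimates with RPS, with a mean of 9.24 to 10.40 in CS and 8.39 to 9.77 in RPS, and CD4 alone passed those thresholds, at -0.99 (SE 0.30). The 4 measured B cell genes all had lower estimates with RPS, with a median of -1.60 and a mean level of 6.51 to 10.46 in CS and 5.32 to 10.17 in RPS, and none passed the thresholds. The 3 of 6 fibroblast genes measured were also all lower in estimate, with a median of -0.33 and levels of 10.40 to 11.30 and 9.98 to 10.83, and COL1A2 passed at -0.72 (SE 0.23). The smooth muscle list, 3 of 5 measured, stood at 12.12 to 12.40 and 11.70 to 11.99 without overlap. Of its genes ACTA2 alone did not overlap between the diets, and none passed the thresholds. Over all probes the diets did not overlap on 6.51%, and 2.94% passed the thresholds. Of the epithelial genes 1 of 9 had a lower estimate with RPS (median 0.19), and of the endothelial genes 3 of 5 (median 0). The part of these cell types in the ADORA3 and ENTPD1 differences was not tested.

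Among 11359 probes with a gene symbol, the 5 whose colonic profile was most like that of ADORA3 (A_72_P209987) over the 8 arrays were C5AR1, the receptor of the complement fragment C5a (Pearson r = 0.984), NPC2, a lysosomal cholesterol carrier (0.984), ARRB2, an arrestin that switches off G protein-coupled receptors (0.982), SCARB1, a lipoprotein receptor (0.980), and PLA2G7, the platelet-activating factor acetylhydrolase of plasma (0.977). After the mean of each diet had been taken from the values the correlations were 0.972, 0.965, 0.960, 0.958 and 0.979 in the same order. The arrays share slide, diet and tissue makeup, and the probes were ranked by this correlation, so it is a description.

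ENTPD1, the enzyme that opens the path from ATP to adenosine, was measured by 4 probes, for which the array files name 1 and the same RefSeq mRNA, and in the colon they disagreed. On A_72_P440251 the CS arrays read 6.57, 7.72, 7.20 and 7.40 and the RPS arrays 5.88, 7.15, 5.72 and 6.56. RPS replicates 1 and 3 were low, while RPS replicate 2 lay among the CS arrays. The log2 difference was -0.90 (SE 0.38), or 1.86-fold lower with RPS. On A_72_P762377 the CS arrays read 4.57, 5.18, 4.78 and 4.88 and the RPS arrays 3.62, 4.71, 3.37 and 4.00, a difference of -0.93 (SE 0.30). This probe is dim: all 4 CS arrays but only RPS replicates 2 and 4 read well above background.

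The other ENTPD1 probes showed almost no mean difference between the diets in colon. A_72_P712383 read 6.24, 6.04, 5.60 and 6.0 in CS and 6.17, 6.49, 5.97 and 5.55 in RPS, a log2 difference of 0.07 (SE 0.23). A_72_P717958 read 4.39, 4.21, 3.45 and 3.91 in CS and 4.24, 4.60, 4.33 and 2.63 in RPS, a difference of -0.04 (SE 0.45), with RPS replicate 4 not well above background. The groups overlapped on both.

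The probes formed pairs by their profile over the 8 colonic arrays. A_72_P440251 and A_72_P762377 correlated at 0.968, A_72_P712383 and A_72_P717958 at 0.893, and every correlation between the pairs lay between -0.0672 and 0.103. The listed starts, with the same doubt as to what they count, are close to each other for A_72_P717958 and A_72_P712383, at 630 and 697, and higher for A_72_P762377 and A_72_P440251, at 1145 and 1579. The files list an Ensembl transcript for the latter pair and none for the former, which carry 2 assembled contigs each instead. In liver the pairs correlated at 0.712 and 0.677, and the values between pairs ran from 0.124 to 0.613, but A_72_P762377 and A_72_P717958 were not well above background on any liver array.

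Without CS replicate 3 and RPS replicate 2 the colonic differences were -1.18 (SE 0.38) on A_72_P440251 and -1.21 (SE 0.23) on A_72_P762377, against -0.20 (SE 0.19) on A_72_P712383 and -0.44 (SE 0.50) on A_72_P717958. The diets then overlapped on neither of the former pair and on both of the latter. On A_72_P440251 the lowest CS array read 6.51 and the highest RPS array 6.5. These arrays were left out after the data had been seen. The share of all probes without overlap in this setting was not counted, so nothing is read from it.

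**Figure D2:**
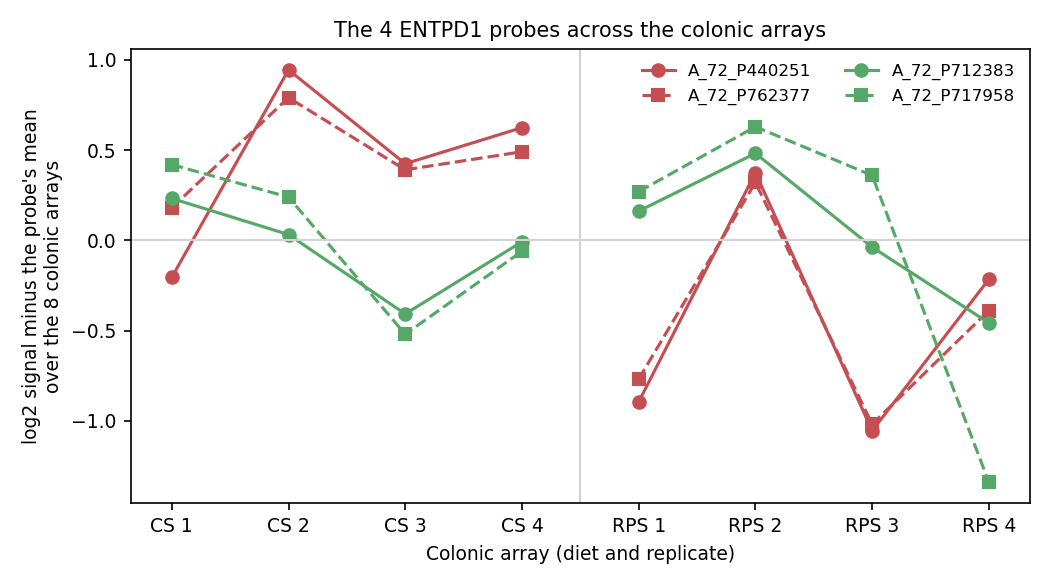
The 4 ENTPD1 probes across the 8 colonic arrays, each as log2 signal minus that probe's mean over these arrays; lines join the arrays of a diet group only to help the eye follow a probe. The red pair (A_72_P440251 and A_72_P762377) moves together and is lowest on RPS replicates 1 and 3, and the green pair (A_72_P712383 and A_72_P717958) moves together with lows on CS replicate 3 and RPS replicate 4.

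In liver no ENTPD1 probe passed the test between the diets, although all 4 estimates lay below 0. A_72_P440251 read 4.57, 5.37, 5.31 and 5.30 in CS and 4.53, 3.63, 4.39 and 5.84 in RPS, with a log2 difference of -0.54 (SE 0.45, interval -1.60 to 0.52, limma adjusted p = 0.850). RPS replicate 4 was the highest liver array of all, and the other RPS arrays were the lowest. A_72_P712383 read 5.05, 4.19, 4.29 and 4.77 in CS and 4.01, 3.82, 4.55 and 4.05 in RPS, a difference of -0.47 (SE 0.24, interval -1.03 to 0.09, adjusted p = 0.719, exact permutation p = 0.143). The dim probes A_72_P717958 and A_72_P762377 have only an upper bound in liver, and no fold is given for them there.

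ENTPD1 was higher in colon than in liver on all 4 probes, the pairs included. The tests below use colonic values that were in the diet difference known when the gene was chosen. A_72_P440251 ranged from 5.46 to 7.50 in colon (median 6.61) and from 3.91 to 6.09 in liver (median 5.20), a log2 difference of 1.39 (SE 0.31, 2.63-fold, limma adjusted p = 0.00143). A_72_P712383 ranged from 5.28 to 6.24 in colon (median 5.76) and from 4.09 to 5.32 in liver (median 4.52), a difference of 1.13 (SE 0.17, 2.19-fold, adjusted p = 5.95e-05). The tissues overlapped on both probes. A_72_P762377 and A_72_P717958 were not well above background on any liver array, so only a bound is given, 1.58-fold and 1.23-fold higher in colon. The bound sets the colonic mean against a floor on each liver array. The floor is the higher of the dim probe's own signal and the lowest signal well above background. Only 6 and 7 of the 8 colonic arrays were well above background, so the bound is approximate. The limma adjusted p of 0.000157 and 0.0125 are for the signals without this floor and do not test the bound. Within the CS diet the differences of A_72_P440251 and A_72_P712383 were 1.58 and 0.86 (adjusted p = 0.00358 and 0.0194), and within the RPS diet 1.20 and 1.40 (adjusted p = 0.109 and 0.00309). A_72_P762377 passed within both diets (adjusted p = 0.00295 and 0.0287), and A_72_P717958 within neither (adjusted p = 0.0792 for CS and 0.105 for RPS). With normexp background correction, which adds an offset, the pooled differences of A_72_P440251, A_72_P712383, A_72_P762377 and A_72_P717958 were 0.61, 0.31, 0.18 and 0.16, and all passed.

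The 5 colonic profiles most like that of ENTPD1 on A_72_P440251 were AQP3, a water and glycerol channel (Pearson r = 0.964 over 8 arrays), SPCS1, a signal peptidase subunit, on 2 probes (0.947 and 0.903), CXCL12, a chemokine of stromal cells (0.925), and TMEM237, a protein of the primary cilium (0.908). With the mean of each diet taken out, r was 0.943 for AQP3, 0.917 and 0.846 for SPCS1, 0.874 for CXCL12 and 0.903 for TMEM237. The probes were filtered and ranked as for ADORA3, so this too is a description. None of these genes was on the list nearest to ADORA3.

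ADORA2A, the receptor through which adenosine restrains T cells and neutrophils, differed between the tissues but little between the diets. On A_72_P213552 the colonic CS arrays read 10.31, 10.48, 10.40 and 10.35 and the RPS arrays 10.54, 10.47, 10.30 and 10.59, a log2 difference of 0.09 (SE 0.10). In liver the CS arrays read 10.92, 10.69, 10.88 and 10.72 and the RPS arrays 10.62, 10.63, 10.73 and 10.70, a difference of -0.13 (SE 0.08, interval -0.33 to 0.06, limma adjusted p = 0.775, exact permutation p = 0.143). The replicates lay within 0.3 of each other in every group, closer than those of ADORA3 in colon.

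ADORA2A was 1.53-fold lower in colon than in liver. On the scale of all 16 arrays A_72_P213552 ranged from 10.13 to 10.43 in colon (median 10.28) and from 10.76 to 11.06 in liver (median 10.86), so that no colonic array reached a liver array. The log2 difference was -0.61 (SE 0.07, limma adjusted p = 2.72e-06), and it was -0.72 within the CS diet and -0.50 within the RPS diet (adjusted p = 0.000862 and 0.00612). The other ADORA2A probe, A_72_P511055, was not well above background on any of the 16 arrays, so it gives no second reading of this difference.

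**Figure D3:**
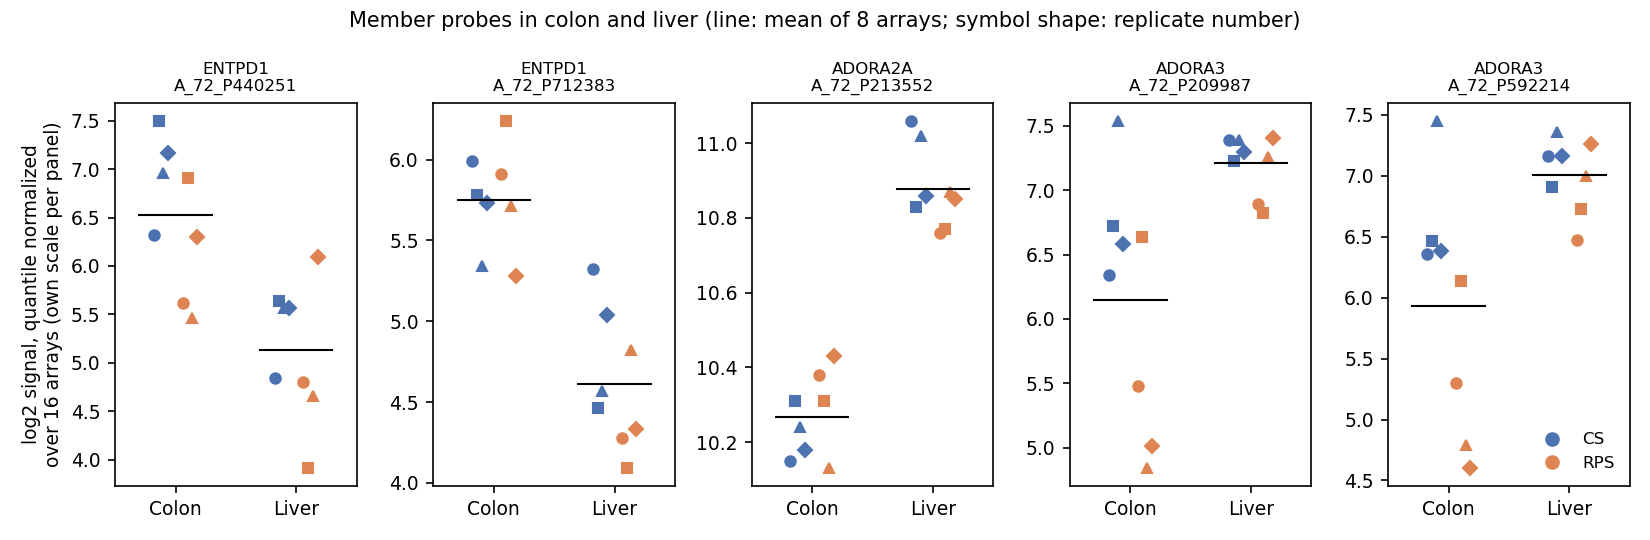
The member probes well above background on all 16 arrays, in colon and liver, as log2 signal after quantile normalization over the 16 arrays, with a scale of its own in each panel; each symbol is an array (blue CS, orange RPS) and lines are means of 8 arrays. Both ENTPD1 probes are higher in colon, ADORA2A is lower without overlap, and ADORA3 is lower, with RPS replicates 1, 3 and 4 the lowest.

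P2RX7 was near background. Its probe, A_72_P213572, was well above background on 1 of the 16 arrays, colonic CS replicate 3, where it read 4.98 against 1.25 to 1.94 on the other CS arrays and 1.37 to 2.84 on the RPS arrays. Its colonic log2 difference was -0.34 (SE 0.87), and 0.34 (SE 0.45) without the arrays that stood apart. CS replicate 3 also had the highest ADORA3 readings of the colon and the highest B cell marker level. On the liver arrays P2RX7 read 1.36 to 2.58. No difference between diets or tissues could be seen at this signal, and the data do not show that there is none.

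ADORA1, the other receptor that lowers cyclic AMP, was measured by probes found only through RefSeq. A_72_P147036 was well above background on 5 of 8 colonic and 5 of 8 liver arrays. It read 3.33, 5.76, 4.13 and 4.26 in colonic CS and 3.39, 4.39, 5.16 and 2.46 in colonic RPS, a log2 difference of -0.52 (SE 0.71). Without the arrays that stood apart it was -0.77 (SE 0.92), and with 1 array left out it ran from -0.96 to -0.05. In liver it gave -0.12 (SE 0.20, interval -0.59 to 0.35, limma adjusted p = 0.930), and colon minus liver was -0.14 (SE 0.38, interval -0.96 to 0.69, adjusted p = 0.788). A_72_P687910 was not well above background on any array.

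NT5E, which completes the extracellular path to adenosine, was bright on its 1 probe, A_72_P411133. In colon the CS arrays read 11.40, 11.47, 9.66 and 11.64 and the RPS arrays 11.35, 9.85, 11.19 and 10.93, a log2 difference of -0.21 (SE 0.53). The lowest array of each diet was the one that stood apart in its markers, CS replicate 3 and RPS replicate 2, and these same arrays were the highest of their group for ADORA3. Without them NT5E read 11.38 to 11.61 in CS and 10.89 to 11.32 in RPS, a difference of -0.35 (SE 0.15). In liver NT5E gave -0.22 between the diets (SE 0.48, interval -1.34 to 0.90, limma adjusted p = 0.957).

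Between the tissues NT5E depended on those arrays. Over all 16 arrays colon minus liver was 0.66 (SE 0.37, limma adjusted p = 0.153), with colonic values from 9.48 to 11.53 and liver values from 9.15 to 10.91. Without both arrays the difference was 1.07 (SE 0.29, adjusted p = 0.00792), and without colonic CS replicate 3 alone it was 0.90 (adjusted p = 0.0302). The removal of both was chosen after the data had been seen. They held the lowest colonic NT5E readings, 9.48 and 9.68, so leaving them out raises the difference. A further probe, which the array files leave unnamed and describe after the dog CD73 gene, followed the same course, with its lowest colonic readings, 6.92 and 7.33, on the same arrays. It shares a run of 15 bases with the NT5E probe. Its difference between the tissues was 0.37 (SE 0.37, adjusted p = 0.422).

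Counted over the 9 probes of the rule, 6 had lower colonic estimates with RPS, where 47.7% of all probes did. As a count and not a test, 4 of the 9 had an unadjusted p under 0.05 with a change above 1.5-fold, all lower with RPS: the 2 ADORA3 probes and ENTPD1 A_72_P440251 and A_72_P762377. Over all probes 2.94% passed both thresholds in the colon, 1.32% with lower and 1.62% with higher levels, and 6.83% were lower by more than 1.5-fold with or without the p, as the same 4 of the 9 were. Since the colonic contrast chose the genes, nothing is read from these shares. Scaled to the 75th percentile of each array, 1358 probes were higher and 610 lower in place of 708 and 575. The diet groups did not overlap on 1 of the 9, against 6.51% of all probes. The median log2 difference was -0.34 over the 9 probes, which is the estimate of the near-background P2RX7 probe, and 0.01 over all probes. No probe on the array had an adjusted p under 0.05 in the colonic diet comparison by limma, where 1283 passed the unadjusted thresholds.

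In liver 8 of the 9 probes had lower estimates with RPS, where 51.0% of all probes did, with a median of -0.33 against -0.00376 over all probes. ADORA2A A_72_P511055, ENTPD1 A_72_P717958 and A_72_P762377 and P2RX7 were not well above background on any liver array. The median is the estimate of A_72_P717958 (SE 0.63). Probes of the same gene are not separate readings either, so no shift of the group is read from this count. None of the 9 had an unadjusted p under 0.05, which 7.59% of all probes had, and so none passed both thresholds, which 3.56% of all probes did. None passed the adjusted test, as 1 probe of the whole array did (0.00229%). The diet groups overlapped on all 9, whereas 4.45% of all probes had groups that did not.

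Between the tissues 7 of the 9 probes passed the adjusted test, 4 higher in colon (ENTPD1) and 3 lower (both ADORA3 probes and ADORA2A A_72_P213552). The ADORA3 and ENTPD1 calls use colonic values that were in the diet differences known when the genes were chosen. Neither ADORA3 probe passed within the CS diet. Within the CS diet 4 of the 9 passed, beside 17630 of all 43603 probes, and within the RPS diet 5, beside 16391. With both diets together 52.9% of all probes passed, 28.9% higher and 24.0% lower in colon. The tissues did not overlap on 1 of the 9, against 26.8% of all probes. The 2 probes that did not pass, ADORA2A A_72_P511055 and P2RX7, are those near background.

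**Figure D4:**
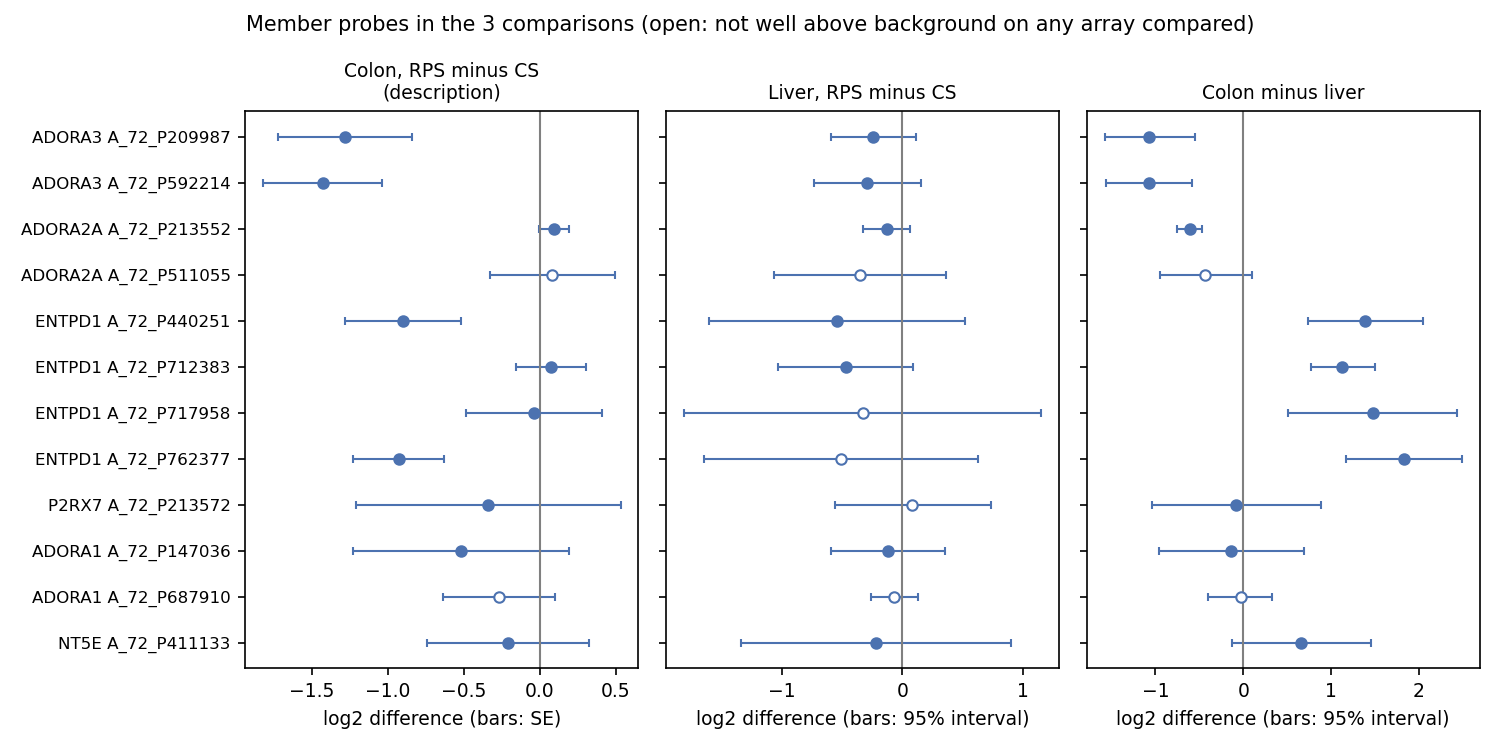
Log2 differences of the 9 probes of the rule and the 3 found through RefSeq (ADORA1 and NT5E), between the diets in colon (a description, bars are SE), between the diets in liver and between the tissues (bars are 95% intervals); each panel has its own scale, and open symbols are probes not well above background on any array compared. The intervals in liver all span 0, and those of ENTPD1, ADORA2A A_72_P213552 and ADORA3 between the tissues do not. For ADORA3 and ENTPD1 they use colonic values that were in the diet differences known when the genes were chosen.

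Other genes of the path were read from a list of 51 purine genes, of which 28 had a probe, each by its brightest. In colon 15 of the 28 had lower estimates with RPS and 1 passed an unadjusted p under 0.05 with a change above 1.5-fold, P2RY12, an ADP receptor of platelets and microglia (-0.71, SE 0.18), which was well above background on only 2 of the 8 colonic arrays. The count was 6 without RPS replicate 2 and 3 without both arrays that stood apart. Over all probes the count of 1283 rose to 2635 and 2385 in these settings. The median over the 28 was -0.03. Over all probes 47.7% had lower estimates and 2.94% passed both thresholds.

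In liver 17 of the 28 had lower estimates, beside 51.0% of all probes, and 2 passed those thresholds, beside 3.56%. These were AK1, a kinase that balances adenine nucleotides (0.95, SE 0.37, limma adjusted p = 0.620), and P2RY12 (-1.08, SE 0.45, adjusted p = 0.639), well above background on 2 of 8 liver arrays. The liver count was 0 when either CS replicate 1 or 3 or RPS replicate 1 was left out, and 1 without any other RPS replicate.

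The remaining relatives of ENTPD1 did not pass these thresholds in either tissue. In colon the log2 differences between the diets were -0.34 (SE 0.35) for ENTPD3, 0.15 (SE 0.18) for ENTPD4, 0.25 (SE 0.86) for ENTPD5, 0.50 (SE 0.35) for ENTPD7 and 0.32 (SE 0.79) for ENTPD8, the enzyme of this family known from bile canaliculi and colon. The ATP-gated channels related to P2RX7 gave -0.49 (SE 0.40) for P2RX1, 0.28 (SE 0.17) for P2RX3 and -0.74 (SE 0.74) for P2RX5. These estimates lay on both sides of 0.

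Between colon and liver 15 of the 28 genes passed the adjusted test, 9 higher in colon and 6 lower, beside the 52.9% of all probes, and the tissues did not overlap on 9, beside 26.8%. The enzyme that splits inosine and guanosine, PNP, differed by 4.80 on the log2 scale (SE 0.17, 27.9-fold higher in colon, limma adjusted p = 9.49e-12). P2RY10, listed with the P2Y receptors by its name only, was also higher in colon (2.72, SE 0.48, well above background on 2 of 8 liver arrays). So were the nucleotide receptor P2RY1 (2.31, SE 0.31), AK1 (2.01, SE 0.39) and the channel P2RX5 (1.90, SE 0.45). ENTPD7 passed at 1.04 (SE 0.21, adjusted p = 0.000653), as ENTPD1 did, while ENTPD8 at 1.12 (SE 0.51, adjusted p = 0.0806) and ENTPD5 at 0.99 (SE 0.47, adjusted p = 0.0911) did not.

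Lower in colon were DPP4, the peptidase that anchors ADA at the cell surface (-3.63, SE 0.24), ENPP1, an ecto-enzyme that splits ATP to AMP and pyrophosphate (-2.83, SE 0.19), HPRT1, which salvages hypoxanthine and guanine (-2.74, SE 0.20), ADK, the kinase that returns adenosine to AMP (-2.69, SE 0.16), and ENPP2 (autotaxin; -2.39, SE 0.33), with adjusted p between 2.81e-09 and 2.59e-05. The median over the 28 was 0.21, against 0.01 over all probes.

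**Figure D5:**
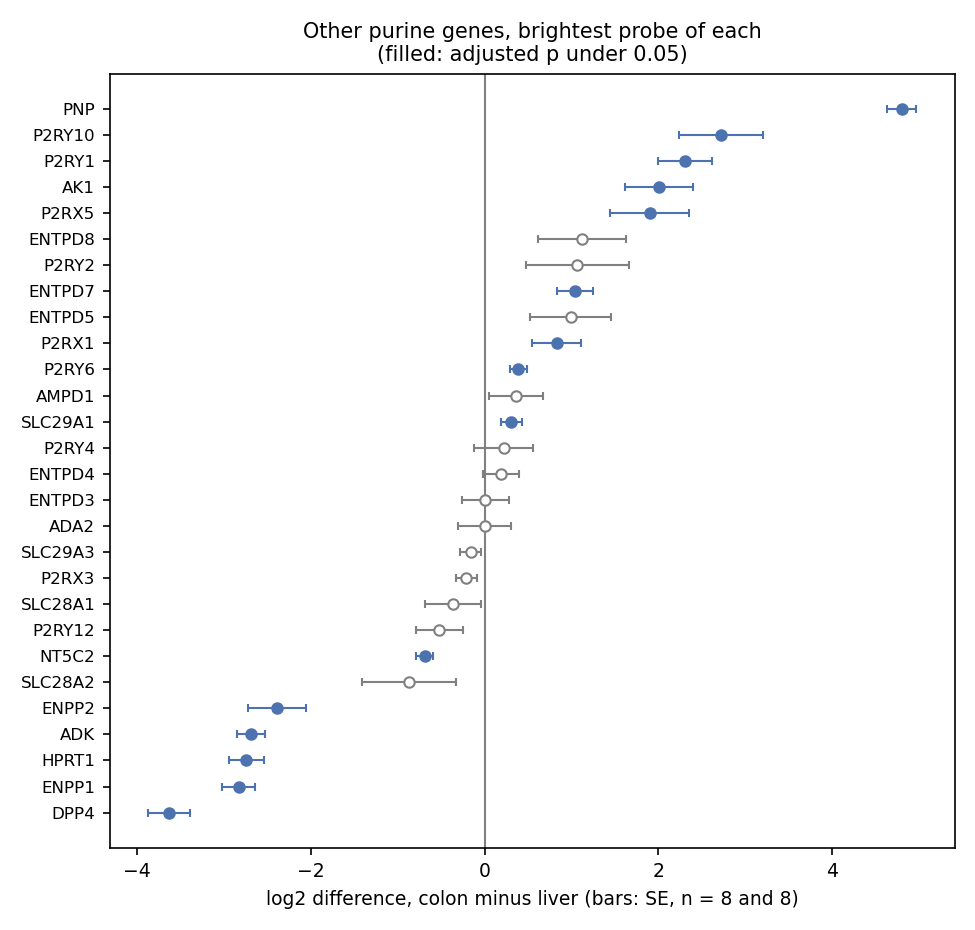
Log2 difference between colon and liver for 28 purine genes beside the members, each by its brightest probe, with SE bars over 8 colonic and 8 liver arrays; filled points have an adjusted p under 0.05. PNP stands highest at 4.80 and DPP4 lowest at -3.63, with 9 genes higher in colon and 6 lower among those that passed.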

How the data were processed

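RNA of 8 colonic mucosa and 8 liver samples was hybridised to 1-colour Agilent porcine arrays, read with Feature Extraction 10.7 per the labels. The deposited intensity of each spot is the processed signal, already background-subtracted by the authors' software. The deposited table of log2 values, quantile normalized by the authors, served as an alternative. Here the control spots were removed, spots marked as outliers were treated as missing, log2 signals were quantile normalized and repeated spots were averaged, giving 43603 probes. The diets were compared within each tissue and the tissues over 4 groups with limma 3.58.1 in R 4.3.3, with Benjamini-Hochberg adjustment over all probes, after a test on simulated data. For single liver probes the exact permutation test was added. The number of arrays, 4 per group, limits the precision.

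The members and all lists were chosen with earlier results of these data known. Named beside the members were, of the purine list, the 5 largest changes past the thresholds in each direction and up to 8 relatives of a member, and the 5 most similar colonic profiles of ADORA3 and ENTPD1. Gene names were those of the files, updated through RefSeq (Sscrofa11.1). Of 43603 probes 14392 had a symbol. The array's genome build is not given in the sources used here, so no coordinates are printed. Marker lists covered 11 cell types. The alternatives tried were other scalings, background corrections, filters, fits and blocks, the authors' values and each array left out. Replicates are samples that the labels number separately, 1 array each.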

Additional observations from a re-analysis of the deposited data

Results flagged for a closer look

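Of 48 sets of 4 arrays (12 probes in 4 groups), 5 held an array far from the other 3 by Dixon's test, where chance alone gives about 1 in 20. ADORA3 A_72_P592214 read 7.67 on colonic CS replicate 3, against 6.61 to 6.71 on the other CS arrays. NT5E A_72_P411133 read 9.66 on that same array, against 11.40 to 11.64. This is the array with the lowest epithelial and the highest B cell marker level in the colon, and the part of tissue makeup in these values was not tested. ENTPD1 A_72_P440251 read 4.57 on liver CS replicate 1, against 5.30 to 5.37. The other 2 were not well above background, ADORA2A A_72_P511055 at 1.78 on colonic RPS replicate 3, against 2.46 to 2.60, and ADORA1 A_72_P687910 at 2.69 on colonic CS replicate 4, against 1.07 to 1.13.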

How the results depend on the processing

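No member probe that passed a threshold changed direction under any alternative run. In colon the count of 4 member probes became 2 with normexp background correction, which adds an offset of 50 to every signal, and 2 at a fold change above 2, and ran from 2 to 4 with 1 array left out (2 without CS replicate 3, RPS replicate 3 or RPS replicate 4). With normexp ADORA3 A_72_P209987 stood at -0.70, A_72_P592214 at -0.68, ENTPD1 A_72_P440251 at -0.54 and A_72_P762377 at -0.20 in colon, and ADORA3 at -0.57 and -0.49 between the tissues. The liver count of 0 ran from 0 to 1 with 1 array left out: ENTPD1 A_72_P712383 passed without CS replicate 2 (-0.60) or RPS replicate 3 (-0.62) and A_72_P440251 without RPS replicate 4 (-0.96), with adjusted p of at least 0.427. Between the tissues the count of 7 became 4 within the CS diet and 5 within the RPS diet, and ran from 7 to 8 with 1 array left out.

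For the purine list the colonic count of 1 became 0 with normexp, with the filter on dim probes, with all 16 arrays in one fit and at a fold change above 2, became 3 without the arrays that stood apart (an alternative chosen after seeing the data), and ran from 1 to 6 with 1 array left out. The liver count of 2 became 1 with quantile normalization over 16 arrays, normexp, the authors' log2 values, the filter on dim probes, all 16 arrays in one fit and a fold change above 2, became 0 with the methods' t-test, and ran from 0 to 2 with 1 array left out. The tissue count of 15 ran from 13 to 16 with 1 array left out. The cause of these shifts was not tested.

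Over all probes the colonic count of 1283 (708 higher, 575 lower) became 1968 (1358 higher, 610 lower) with 75th percentile scaling, 2635 without RPS replicate 2, 2385 (1087 higher, 1298 lower) without the arrays that stood apart, 780 after the filter on dim probes, 517 at a fold change above 2 and 172 with normexp. The liver count of 1554 became 965 after that filter, 525 at a fold change above 2 and 220 with normexp. The tissue count of 23084 became 17630 within the CS diet, 16391 within the RPS diet and 12787 at a fold change above 2.

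The replicate numbers were not taken to pair the samples: arrays of the same number correlated in their deviations from the group mean at 0.549, -0.396, -0.507 and 0.0983 between the colonic diet groups, at -0.164 to 0.108 between the liver diet groups, at 0.159 to 0.334 between colon and liver of the CS pigs and at -0.0764 to 0.0732 between those of the RPS pigs, and 4 of 8 colonic arrays correlated best with the liver array of their own number. With the replicate number as a block the counts past the thresholds were 4 in colon, 0 in liver and 7 between the tissues for the members, and 1, 3 and 16 for the purine list. Probes near background limit P2RX7, ADORA1 and the dimmer ENTPD1 and ADORA2A probes.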
